A study of Mus musculus with 36 samples.

Results

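The genes that encode the proteins of the cytosolic ribosome were located in maps of replication timing (RT), the order in which regions of the genome are copied during S phase. A gene was included when it was protein-coding, lay on an autosome, and had a symbol of Rpl or Rps with digits and at most 1 further letter, or Rplp0 to Rplp2. This rule used names alone and gave 75 of the 21418 autosomal protein-coding genes. Of these, 45 encoded proteins of the large subunit and 30 proteins of the small subunit, and they lay on 18 chromosomes, with none on chromosome 19.

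The assay was Repli-seq, which sequences newly made, BrdU-labelled DNA of cells sorted from the early or the late part of S phase. Of 36 libraries in 7 groups, 8 libraries of 2 groups stood behind the maps used here. The first group was CH12, a mouse B cell lymphoma line, carrying an shRNA against LacZ as the infection control and grown with IL4, CD40 and TGF beta stimulation. The second was wild-type (WT) primary B cells, taken from the spleen and activated in culture. Each group had 2 early and 2 late libraries, and the labels number them as replicates. The methods speak both of separately thawed vials of CH12 cells as biological replicates and of paired sorts of each fraction as technical ones, and which of these the numbers mark is not given in the labels. No age or number of animals was given for the primary cells, and their growth label repeated that of the CH12 cells. A further map was named for wild-type mouse embryonic fibroblasts (MEFs), but no label tied it to a sample. It is called the map named for MEFs below.

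Each map cut the mm9 genome into domains of an early (E), middle (M) or late (L) state in 20 kb steps, and held no RT value, read count or replicate. There was thus 1 map per cell type, no spread between replicates and no test between cell types. Intervals are Wilson 95% intervals over genes, which cover counting error only, and neighbouring genes in a domain are not independent. The files number the states without naming them. In all 3 maps the state called E held the most protein-coding gene starts per Mb, with 18.9 in CH12, 17.6 in primary B cells and 16.1 in the map named for MEFs. The state called L held 3.76, 2.88 and 3.29 per Mb, and E and L domains touched in 0 places. The maps hold no expression values, so the cell types could not be checked against marker genes.

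Ribosomal proteins assemble with ribosomal RNA in the nucleolus into the small subunit, which decodes mRNA, and the large subunit, which joins amino acids. Their genes are scattered over the genome, are transcribed at high levels in nearly all cells, and have to give balanced amounts of each protein. Loss of 1 copy of several of them causes Diamond-Blackfan anaemia, a failure of red cell production. Many of their mRNAs begin with a cytosine followed by a run of pyrimidines, the terminal oligopyrimidine tract through which mTOR signalling controls their translation. Broadly expressed genes in gene-rich regions are commonly copied early in S phase.

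A gene's RT state was read at its GENCODE gene start. The tract was looked for at starts of transcription listed by RefSeq, which can lie at other bases. Each window below covers 10 bases before a start listed by RefSeq and 20 bases from the start on. Capitals mark the longest run that opens with a cytosine within 10 bases of the start and goes on with at least 4 pyrimidines. The first 3 genes were E in all 3 maps and the rest were not, so that both kinds can be seen side by side. The examples were chosen by hand after the states were known. Positions are in mm9, from an exact match of the RefSeq sequence.
Rpl38, chr11:114529884-114529913, + strand: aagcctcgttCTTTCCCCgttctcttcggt
Rpl28, chr7:4744557-4744586, + strand: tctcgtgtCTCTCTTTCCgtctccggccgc
Rps10, chr17:27772170-27772199, - strand: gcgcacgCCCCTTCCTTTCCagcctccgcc
Rpl15, chr14:19103481-19103510, - strand: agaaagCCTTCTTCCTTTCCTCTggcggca
Rps9, chr7:3655633-3655662, + strand: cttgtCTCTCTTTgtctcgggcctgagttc
Rps7, chr12:29320799-29320828, - strand: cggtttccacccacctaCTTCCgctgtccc
Rps12, chr10:23506996-23507025, - strand: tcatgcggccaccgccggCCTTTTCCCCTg
Rps24, chr14:25309890-25309919, + strand: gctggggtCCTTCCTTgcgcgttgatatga
Rpl10l, chr12:67385369-67385398, - strand: CCTCCattttgcggctggcggtgggcacgc

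RefSeq listed a start for 54 of the 75 genes and for 14206 of all genes. A cytosine exactly at a listed start with at least 4 pyrimidines after it was found in 13 of the 54 (24.1%, 14.6 to 36.9%), against 2.74% of all genes. With the cytosine anywhere within 10 bases of a start, the letters were found in 36 of 54 (66.7%, 53.4 to 77.8%), against 35.1% of all genes. At the GENCODE gene start, the base used for the RT state, only 3 of 75 genes (4.0%, 1.37 to 11.1%) had them, against 2.10% of all genes. The count therefore depended on which start was read, and the GENCODE start was the outermost one of any transcript. The RT states did not depend on it, since all 66 listed starts of these genes had the same 3 states as the GENCODE start. The letters TATAAA, searched on both strands from 40 to 11 bases before a listed start, were found in 0 of 54, which allows a share of up to 6.64% (upper Wilson bound), against 3.72% of all genes.

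Both kinds of RT state held genes with the tract. The exact letters were present in 8 of 36 genes that were E in all 3 maps (22.2%, 11.7 to 38.1%) and in 5 of 18 that were not (27.8%, 12.5 to 50.9%). With the cytosine within 10 bases the counts were 21 of 36 (58.3%, 42.2 to 72.9%) and 15 of 18 (83.3%, 60.8 to 94.2%), and both pairs of intervals overlapped. In the sequences above, *Rpl38* of the E group and *Rpl15*, which was M in every map, both had them. None of 67 mitochondrial ribosomal protein genes with a listed start had a cytosine with 4 pyrimidines at exactly that base, which allows a share of up to 5.42%. Within 10 bases it was found in 31 of them (46.3%, 34.9 to 58.1%).

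The first question was in which RT state the ribosomal protein genes lay in each cell type. Most of them were E in every map, and very few were L. In CH12 cells, 54 of 75 were E (72.0%, 61.0 to 80.9%), against 51.8% of all autosomal protein-coding genes. The primary B cell map gave E at 62 of 75 (82.7%, 72.6 to 89.6%), against 59.2% of all genes. In the map named for MEFs, 63 of 75 were E (84.0%, 74.1 to 90.6%), against 61.1% of all genes. The background share rested in part on large late-replicating gene families. Without olfactory receptor, vomeronasal receptor and Gm-named genes it rose to 58.1% in CH12, 65.9% in primary B cells and 68.2% in the map named for MEFs. The lower bounds of the members' intervals lay above these values as well.

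The genes that were not E were mostly M. The M state held 18 of them in CH12 cells, 12 in primary B cells and 11 in the map named for MEFs, which is 24.0%, 16.0% and 14.7%. Over all genes the M shares were 26.9%, 28.2% and 27.9%. The L state held 3, 1 and 1 ribosomal protein genes (4.0%, 1.33% and 1.33%), where it held 21.3%, 12.6% and 10.98% of all genes. In CH12 the members thus differed from all genes mainly in L, while in the other maps both their M and their L shares were lower. These M and L backgrounds still held the olfactory receptor, vomeronasal receptor and Gm-named genes. So did the backgrounds of E in all 3 maps and of E in no map given next.

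Altogether 51 of 75 genes were E in all 3 maps (68.0%, 56.8 to 77.5%), against 45.8% of all genes. Only 7 were E in no map (9.33%, 4.59 to 18.03%), against 30.6% of all genes. The 51 included the genes of the stalk proteins that recruit elongation factors (*Rplp0*, *Rplp1* and *Rplp2*). They also included *Rpl5* and *Rpl11*, whose proteins hold back the p53 inhibitor Mdm2 when ribosome assembly fails. *Rps19*, the gene most often mutated in Diamond-Blackfan anaemia, *Rpl22*, which is needed for lymphocyte development, and *Rpl38*, known for skeletal patterning, were among them too.

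Further large subunit genes that were E in all 3 maps included *Rpl3*, *Rpl3l*, *Rpl4*, *Rpl6*, *Rpl7a*, *Rpl8*, *Rpl9*, *Rpl10a*, *Rpl12*, *Rpl13*, *Rpl13a*, *Rpl18*, *Rpl19*, *Rpl21*, *Rpl23*, *Rpl23a*, *Rpl24*, *Rpl26*, *Rpl27*, *Rpl28*, *Rpl29*, *Rpl32*, *Rpl35a* and *Rpl36*. Further small subunit genes included *Rps2*, *Rps3*, *Rps10*, *Rps14*, *Rps15*, *Rps16*, *Rps18*, *Rps21*, *Rps25*, *Rps26*, *Rps27*, *Rps27a*, *Rps27l*, *Rps28* and *Rps29*. All 75 genes lay within a single domain over their whole length in each map, so a reading at the gene end gave the same counts. They were short, with a median length of 3368 bp against 15535 bp over all genes.

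**Figure D1:**
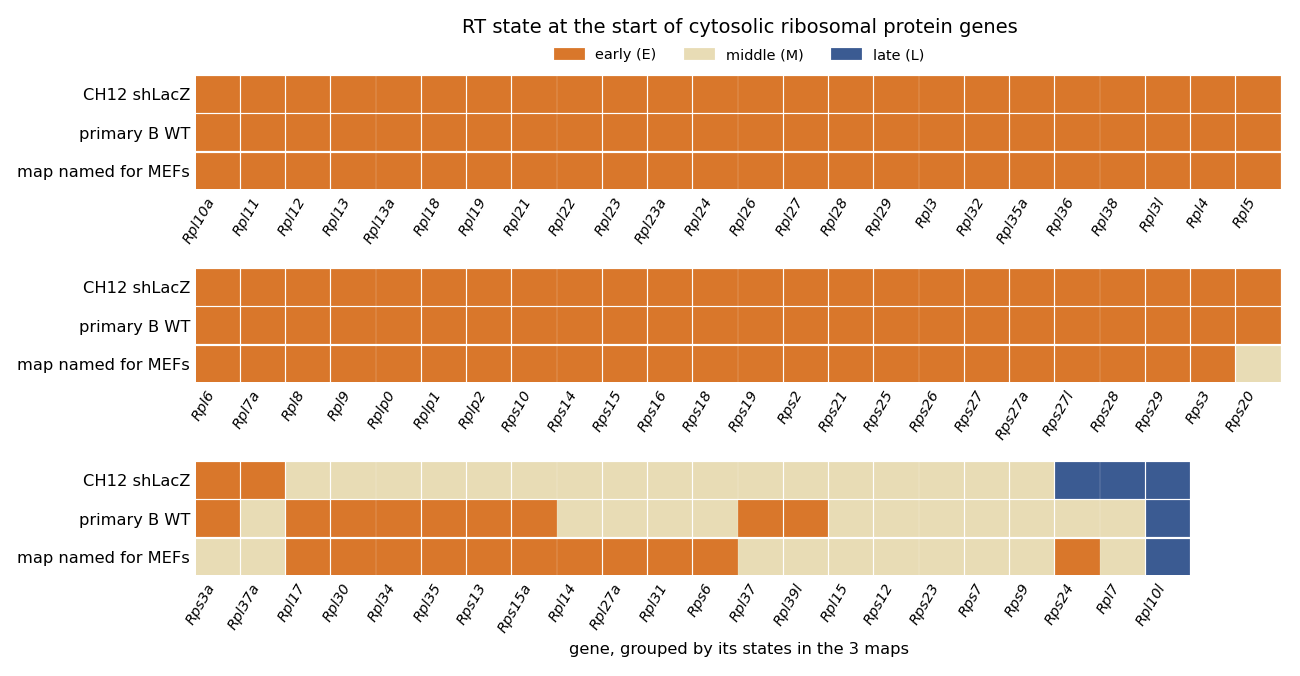
RT state at the start of 70 of the 75 genes (columns) in the 3 maps (rows), with E in orange, M in beige and L in blue. Genes that were E in every map fill the upper part, and only *Rpl10l* is blue in all 3 rows.

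The 24 remaining genes fell into 9 patterns. The most common, M in CH12 and E in both other maps, was found at 7 genes, *Rpl17*, *Rpl30*, *Rpl34*, *Rpl35*, *Rps13* and *Rps15a* among them. *Rpl14*, *Rpl27a*, *Rpl31* and *Rps6*, whose protein is the target of the S6 kinases, were M in both B cell maps and E in the map named for MEFs. *Rpl37* and *Rpl39l* were E only in primary B cells and M elsewhere. *Rps20* and *Rps3a* were E in both B cell maps and M in the map named for MEFs, and *Rpl37a* was E in CH12 alone. *Rpl15*, *Rps7*, *Rps9*, *Rps12* and *Rps23* were M in all 3.

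Just 3 genes were L in any map. *Rps24*, a small subunit gene mutated in Diamond-Blackfan anaemia, was L in CH12, M in primary B cells and E in the map named for MEFs. It was the sole member with 3 different states. This same order of L, M and E over the maps was held by 1.47% of all genes. *Rpl7* was L in CH12 and M in the other maps. *Rpl10l*, an intronless copy of the X-linked *Rpl10* that is known for its role in the testis, was L in all 3.

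The second question was how the states of these genes differed between cell types. From CH12 to primary B cells, 63 of 75 genes kept their state (84.0%, 74.1 to 90.6%). An earlier state in primary B cells was found for 11 (14.7%, 8.39 to 24.4%), against 18.3% of all genes. A later state was found for 1, *Rpl37a* (1.33%, 0.236 to 7.17%), against 2.80% of all genes. Both shares were near those of the background. A gene that was E in CH12 could not be earlier in another map, and this held for 72.0% of the members against 51.8% of all genes.

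Among the 21 genes outside E in CH12, the primary B cell map placed 9 in E (42.9%, 24.5 to 63.5%). Over all genes this share was 20.1% of 10327. The sets differed in make-up, since 18 of the 21 were M and 3 were L in CH12, against 5771 M and 4556 L genes of the background. The part of this mix in the difference was not tested. The 9 were the 7 genes that were M in CH12 alone, with *Rpl37* and *Rpl39l*. Of the 54 with E in CH12, 53 kept it (98.1%), against 95.6% of all genes. In the map named for MEFs, 13 genes were earlier than in CH12 (17.3%) and 3 were later (4.0%), where 23.4% and 5.87% of all genes were. Relative to primary B cells, 5 genes were earlier there and 4 were later, and 66 had the same state (6.67%, 5.33% and 88.0%), where the shares of all genes were 13.6%, 10.3% and 76.0%. All genes together also held more E in primary B cells and in the map named for MEFs than in CH12. E covered 28.6% of the length in primary B cells and 22.7% in CH12, whereas the paper describes relatively fewer early domains in primary B cells. A difference between cell types and one between state borders of the maps cannot be told apart here.

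*Rps24* showed the widest range. It lies at chr14:25309903-25315368 (mm9, + strand) with 4 other protein-coding gene starts within 500 kb. In CH12 its start lay in an L domain of 2800 kb, chr14:22940001-25740000, and 430.1 kb from the nearest domain edge. In primary B cells it lay in an M domain of 960 kb, chr14:25080001-26040000. In the map named for MEFs it lay in an E domain of 3020 kb, chr14:25000001-28020000, with the edge 309.9 kb away. In primary B cells that distance was 229.9 kb, which is below the 300 kb span over which the authors smoothed RT. The nearest E domain was 710.1 kb away in CH12 and 730.1 kb away in primary B cells, on the downstream side in both.

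*Rpl10l*, at chr12:67384368-67385388 (- strand), had 1 other protein-coding start within 500 kb, the lowest count of the 75 genes. Its L domain measured 3580 kb in CH12, 3340 kb in primary B cells and 3240 kb in the map named for MEFs. The start was at least 885.4 kb inside it in each map. *Rpl7*, at chr1:16091376-16094743 (- strand), was L in CH12 by a narrow margin, with its start 5.26 kb from the edge of an M domain. That is less than a single 20 kb step, so its L state rests on the placement of 1 edge.

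**Figure D2:**
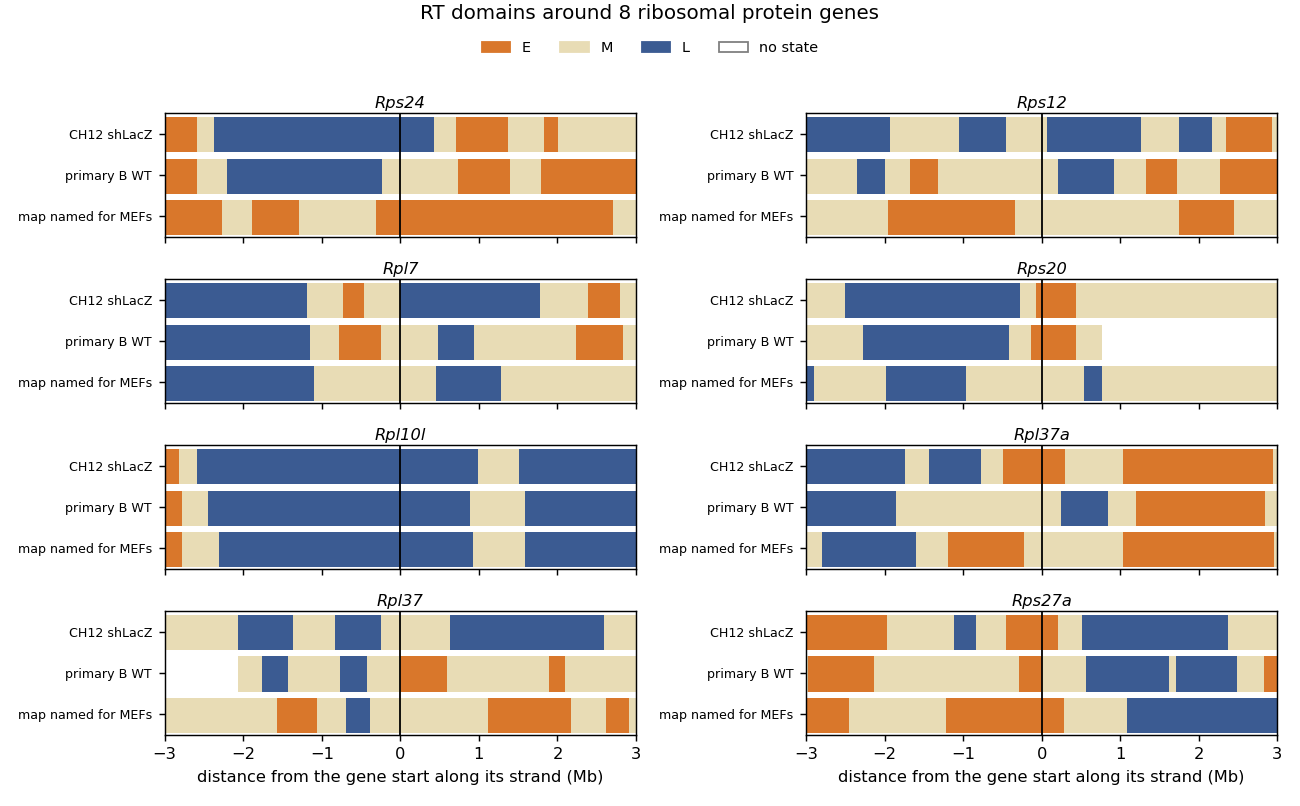
RT domains within 3 Mb of the starts of 8 genes in the 3 maps, with distance from the start along the gene's strand in Mb and the start as a black line at 0. The start of *Rps24* falls in blue, beige and orange from top to bottom, while that of *Rpl10l* is blue in each map and that of *Rps27a* orange in each.

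The 5 genes that were M everywhere differed in what lay around them. *Rps7*, a Diamond-Blackfan gene at chr12:29315712-29320818, lay 2839 kb, 3041 kb and 3339 kb from the nearest E domain in CH12, primary B cells and the map named for MEFs. Its M domains were 820, 760 and 680 kb long and had L domains on both sides in each map. *Rpl15*, also a Diamond-Blackfan gene, at chr14:19100337-19103905, was likewise enclosed by L on both sides in all 3 maps, and 1596, 1416 and 1656 kb from an E domain. These genes were thus on islands of M state within late-replicating surroundings.

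*Rps9*, whose protein helps to keep decoding accurate, was different. Its start at chr7:3655595 lay 4.41 kb outside an E domain in primary B cells, 135.6 kb outside in the map named for MEFs and 764.4 kb outside in CH12. The CH12 domain began at base 1 of chromosome 7, where the primary B map gave no state before base 3000001. *Rps23*, next to the decoding centre, lay 737.3, 177.3 and 277.3 kb from an E domain, with E on one side and L on the other in each map. *Rps12* lay 2347, 1313 and 333 kb away and had 3 small nucleolar RNA (snoRNA) genes inside it.

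Of the 21 genes that were not E in CH12, the median distance to the nearest E domain was 737.3 kb, with a range of 39.9 to 6753 kb. Over all genes that were not E the median was 1026 kb. In primary B cells the median was 730.1 kb over 13 genes and 642 kb over all genes. In the map named for MEFs it was 1197 kb over 12 genes and 721.8 kb over all genes. By these medians the genes that were not E were nearer to E domains than the background in 1 map and farther in the other 2. Within 300 kb of an E domain lay 33.3%, 38.5% and 33.3% of them in CH12, primary B cells and the map named for MEFs. Over all genes that were not E these shares were 24.0%, 30.3% and 28.8%, so the direction depended on the measure. The closest in CH12 were *Rpl17* at 39.9 kb, *Rpl35* at 41.1 kb and *Rps13* at 62.3 kb, each of which was E in both other maps. The farthest were *Rpl37* at 6753 kb and *Rpl34* at 4847 kb, and both were E in primary B cells.

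Domain edges also passed close to several genes inside E. In primary B cells, *Rpl37* lay 6.61 kb and *Rps27a*, which encodes a fusion of ubiquitin and a ribosomal protein, lay 8.11 kb inside the edge. In the map named for MEFs, *Rpl38* lay 9.84 kb inside an E domain of 7220 kb. In CH12 the nearest were *Rps29* at 60.2 kb, *Rps20* at 77.2 kb and *Rps3a* at 86.6 kb. Of these, *Rps20* and *Rps3a* were M in the map named for MEFs and *Rpl37* was M in both other maps. *Rps27a*, *Rpl38* and *Rps29* were E in all 3.

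Most genes were deep inside long E domains. In CH12 the median E domain at their starts was 2830 kb long, and the median over all genes in E was 2220 kb. The medians were 2520 and 2180 kb in primary B cells, and 3020 and 2660 kb in the map named for MEFs. The start was a median of 681.1 kb from the nearest edge in CH12, against 452.7 kb over all genes in E. It was 702.2 against 447.6 kb in primary B cells and 749.4 against 565 kb in the map named for MEFs. The quartiles overlapped widely, at 304.6 to 1220 kb for the ribosomal protein genes and 189.5 to 908.3 kb for all genes in CH12. Within 100 kb of an edge were 5.56%, 8.06% and 11.1% of the ribosomal protein genes in E, against 13.1%, 12.5% and 10.5% of all genes in E.

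Some genes lay in short E domains. In CH12 these were 180 kb at *Rps3a*, 520 kb at *Rps20* and 640 kb at *Rpl28*. In primary B cells they measured 300 kb at *Rps27a* and 460 kb at *Rpl30*, and in the map named for MEFs 320 kb at *Rpl21* and 480 kb at *Rps13*. The longest were 8280 kb at *Rpl11* in CH12, 6700 kb in primary B cells and 12100 kb in the map named for MEFs. The stretch that was E in all 3 maps at once had a median length of 2420 kb over the 51 genes. It ran from 300 kb at *Rps27a* to 6640 kb at *Rpl10a* and its neighbours.

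**Figure D3:**
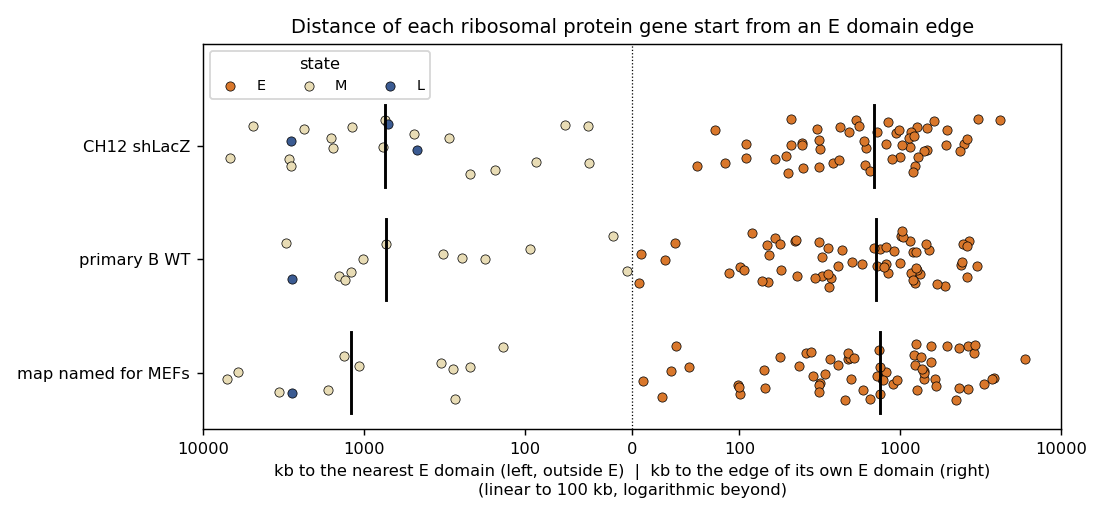
Distance in kb of each gene start from an E domain edge, inside E to the right and outside E to the left, on an axis that is linear to 100 kb and logarithmic beyond. Each point is 1 gene, coloured by state, and black bars are medians. The medians inside E lie between 681.1 and 749.4 kb, and *Rps9*, *Rpl37* and *Rps27a* sit within 10 kb of an edge in primary B cells.

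Few genes shared a domain. The 75 genes lay in 66 domains in CH12, 65 in primary B cells and 64 in the map named for MEFs, and the E domains among these were 45, 52 and 52. In 3 groups of 3 or more, with 10 genes in all, the genes shared an E domain in every map. The pairs *Rpl23* with *Rpl19* and *Rps28* with *Rps18* also shared an E domain in every map. *Rps2*, *Rpl3l*, *Rps10* and *Rpl10a* lay in 1 E domain on chromosome 17, which in CH12 ran over chr17:23720001-30380000 with 213 protein-coding starts. Another group, *Rplp1*, *Rpl4* and *Rps27l*, lay at chr9:60740001-67040000 with 71 starts. In the map named for MEFs this domain was part of the 12100 kb domain, the longest there. With each domain counted once, the E share was 68.2% of 66 in CH12, 80.0% of 65 in primary B cells and 81.2% of 64 in the map named for MEFs.

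Chromosomes differed in their share. All 7 genes on chromosome 11 and all 7 on chromosome 17 were E in every map, as were all 5 on chromosome 5. Over all genes of chromosome 11, 76.6% were E in CH12, 80.0% in primary B cells and 79.1% in the map named for MEFs. On chromosome 17 these shares were 64.8%, 68.5% and 65.4%, and on chromosome 5 they were 55.8%, 62.5% and 65.0%. Chromosome 7 had the most members, 14, of which 9, 12 and 13 were E in the same maps, where 47.2%, 53.3% and 55.2% of its 2072 genes were. In contrast, none of the 3 genes of chromosome 1 (*Rpl7*, *Rpl31*, *Rpl37a*), the 2 of chromosome 14 (*Rpl15*, *Rps24*) or the 1 of chromosome 13 (*Rps23*) was E in every map. E held 49.5%, 57.2% and 62.4% of all genes of chromosome 1, 35.9%, 43.7% and 48.9% of chromosome 14, and 26.9%, 41.7% and 43.5% of chromosome 13.

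The base composition and the gene density around the genes moved with their state. The 51 genes that were E in every map had a median GC content of 48.4% in their 20 kb bin and a median of 25 other protein-coding starts within 500 kb. The 24 others had 44.9% and 8. Over all genes the medians were 44.9% and 16. All genes were then split by each measure into 5 quintiles of equal size. By gene density, all 21 members in the highest quintile were E in every map, where 68.6% of all genes were. In the next quintile it was 14 of 17 and in the middle one 10 of 11, where 62.8% and 55.5% of all genes were. Below these it was 5 of 16, and in the lowest 1 of 10, where 31.5% and 10.5% of all genes were. Hence in the lower 2 quintiles the share was near that of all genes. Over all genes the share also rose with density, from 10.5% in the lowest quintile to 68.6% in the highest.

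The density background also held the receptor families, which lie in dense clusters. Without olfactory, vomeronasal and Gm-named genes, E in every map was found for 84.7% of the highest quintile, 74.6% of the next and 60.8% of the middle one. The interval for the 21 of 21 members of the highest quintile began at 84.5%, just below that background, so that a difference was not detectable with 21 genes. The interval for 14 of 17 in the next quintile, from 59.0 to 93.8%, held its background. The interval for 10 of 11 in the middle one, from 62.3 to 98.4%, began above its background. By GC content, all 22 members of the highest quintile were E in every map, where 85.4% of all genes were. In the 3 quintiles below it the counts were 17 of 25, 8 of 15 and 3 of 11 (68.0%, 53.3% and 27.3%), and 66.2%, 46.1% and 24.8% of all genes were E in every map there. In these quintiles the background lay inside the members' intervals. The interval for the 22 of 22 in the highest quintile, from 85.1 to 100%, held its background as well. The part of GC content and gene density in the E share of the members was not tested.

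**Figure D4:**
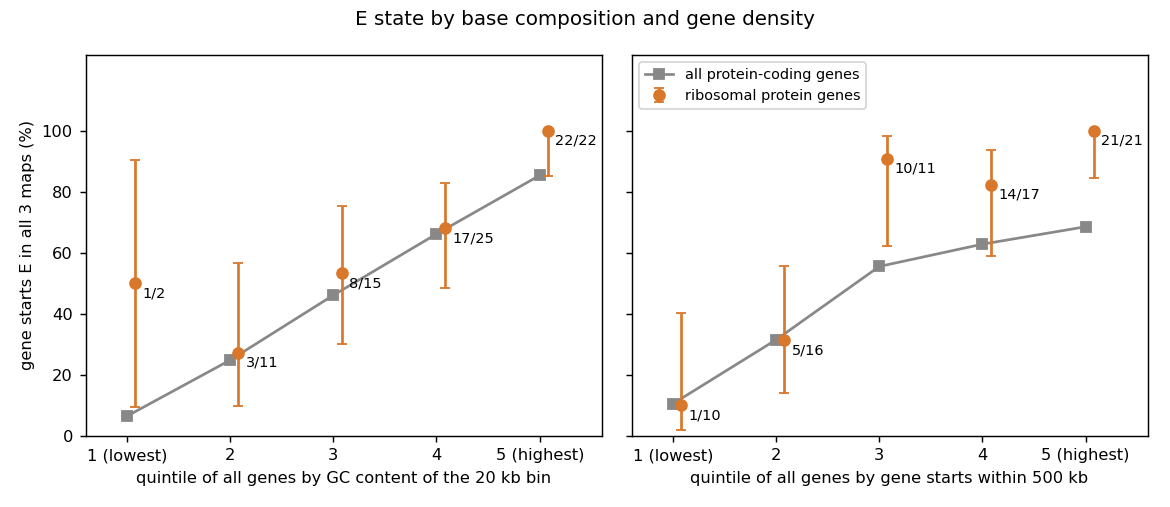
Share of gene starts that were E in all 3 maps (%), in each quintile of all genes by GC content (left) and by the number of other gene starts within 500 kb (right), for all genes (grey squares) and ribosomal protein genes (orange points with Wilson 95% intervals and counts). By GC content the points follow the grey line in the 3 quintiles below the highest. In the highest all 22 and all 21 genes are E, and by GC content the interval there holds the grey line.

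The 2 subunits had similar counts. E in every map was found for 32 of 45 large subunit genes (71.1%, 56.6 to 82.3%) and for 19 of 30 small subunit genes (63.3%, 45.5 to 78.1%), and the intervals overlapped. In CH12 the E counts were 33 of 45 and 21 of 30, in primary B cells 38 of 45 and 24 of 30, and in the map named for MEFs 39 of 45 and 24 of 30. *Rpl15* was the large subunit gene among the 5 that were M everywhere, and the other 4 were small subunit genes.

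Of the 18 genes listed for Diamond-Blackfan anaemia, 13 were E in every map (72.2%, 49.1 to 87.5%), against 38 of the other 57 (66.7%, 53.7 to 77.5%). The 5 exceptions were *Rpl15*, *Rpl31*, *Rpl35*, *Rps7* and *Rps24*. The annotated spans of 27 genes held at least 1 snoRNA gene on the same strand. SnoRNAs guide the modification of ribosomal RNA and are processed from introns of such genes. Of these 27, 25 were E in primary B cells (92.6%, 76.6 to 97.9%), against 37 of the other 48 (77.1%, 63.5 to 86.7%). In CH12 the counts were 21 of 27 and 33 of 48 (77.8% and 68.8%), and in the map named for MEFs 23 and 40 (85.2% and 83.3%). E in every map was found for 19 of 27 and 32 of 48 (70.4% and 66.7%), and all of these intervals overlapped.

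The rule also took in 4 paralogues with narrower known expression. *Rpl3l*, a striated muscle copy of *Rpl3*, and *Rps27l*, a p53-responsive copy of *Rps27*, were E in every map, as were their parent genes. *Rpl10l* was L in all 3, while its parent *Rpl10* on chromosome X was E in both B cell maps and M in the map named for MEFs. *Rpl39l*, a copy known from testis, was M in CH12, E in primary B cells and M in the map named for MEFs, and its parent *Rpl39* on chromosome X was E, E and M. Without the 4 paralogues, E in every map was found for 49 of 71 genes (69.0%).

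The rule left out 10 further ribosomal protein genes and copies by name or chromosome. Of these, 5 were E in all 3 maps, including *Rpsa*, *Fau*, *Rpl36al* and *Rpl7l1*. *Rpl22l1* was L in CH12 and M in both others. The X-linked genes *Rpl10*, *Rpl39* and *Rps4x* were E in both B cell maps and M in the map named for MEFs, and *Rpl36a* was M, E and M. All 4 X-linked genes were thus M in that map, and the sex of the cells behind it was not given. The M share over all X-linked genes was not counted, so these 4 cannot be set against their chromosome. With these genes added, the E shares were 72.9%, 83.5% and 80.0% of 85.

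Other genes of protein synthesis gave a frame for these values. Of 76 mitochondrial ribosomal protein genes, which encode the separate ribosome of the mitochondrion, 52 were E in CH12 (68.4%, 57.3 to 77.8%), 59 in primary B cells (77.6%, 67.1 to 85.5%) and 53 in the map named for MEFs (69.7%, 58.7 to 78.9%). E in every map was found for 47 (61.8%, 50.6 to 71.9%), against 68.0% of the cytosolic set, and the intervals overlapped. Translation initiation factors, which load the ribosome on mRNA, were E in every map in 25 of 34 (73.5%). Elongation and release factors were in 6 of 9, cytosolic aminoacyl-tRNA synthetases, which charge tRNAs, in 11 of 20 (55.0%), and RNA polymerase I genes, which make ribosomal RNA, in 6 of 13 (46.2%).

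Ribosome biogenesis factors, which assemble the subunits, were E in every map in 23 of 41 (56.1%, 41.0 to 70.1%). Their E counts were 23 in CH12 (56.1%), 31 in primary B cells (75.6%, 60.7 to 86.2%) and 34 in the map named for MEFs (82.9%, 68.7 to 91.5%). The order of the maps was thus the same as for the ribosomal protein genes and for all genes. In each map the interval of every one of these 6 lists overlapped that of the ribosomal protein genes, although the share of the ribosomal protein genes lay above the whole interval of the biogenesis factors in CH12, of the aminoacyl-tRNA synthetases in primary B cells and of the mitochondrial ribosomal protein genes in the map named for MEFs.

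**Figure D5:**
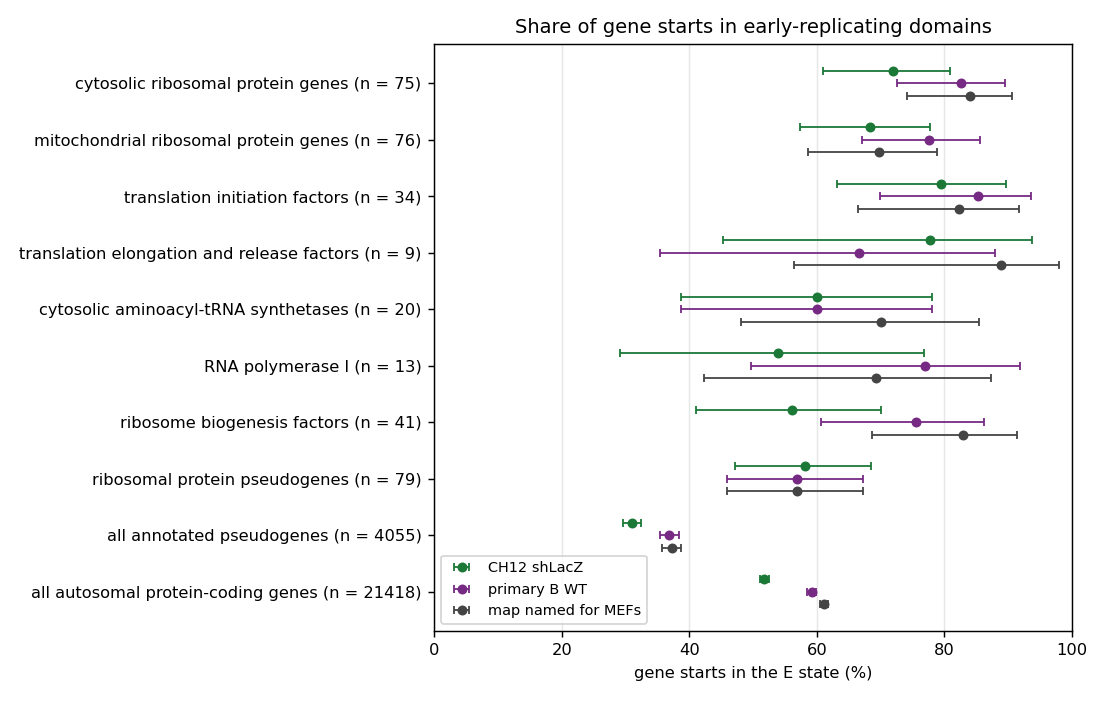
Share of gene starts in the E state (%) for the ribosomal protein genes, 6 other lists of protein synthesis genes, pseudogenes and the protein-coding background in the 3 maps, with Wilson 95% intervals over genes and n beside each name. The cytosolic ribosomal protein genes lie between 72.0% and 84.0%, above all genes at 51.8% to 61.1%, and their intervals overlap those of the 6 lists.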

How the data were processed

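Repli-seq domain maps of CH12 shLacZ cells (4 libraries), primary B WT cells (4 libraries) and a map named for MEFs were used, and the other 5 groups were not analysed here. As deposited, a file holds domain starts, ends and a state number, which is a label and no count or score. According to the methods, the authors trimmed reads (Trim Galore 0.6.5), aligned them to mm9 (BWA 0.7.17), kept unique alignments (SAMtools 1.9), merged replicates, removed duplicates, took log2 early to late ratios in 20 kb windows, smoothed them over 300 kb (loess) and fitted a 3-state hidden Markov model. Merging removed the replicate spread, smoothing blurred edges, and depth is unknown. Processing of the MEF reads is not given in the sources used here.

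State numbers 2, 1 and 0 were read as E, M and L in CH12 and primary B cells, and 0, 2 and 1 in the map named for MEFs. Genes came from GENCODE M1, whose assembly ended each chromosome at the same base as the maps, and took the state at their start. GC content was read from the 20 kb bin, and gene density counted other protein-coding starts within 500 kb. RefSeq starts (GRCm38.p6) were matched exactly to mm9. Named genes were every member not E in a map or with differing states, members of domains with 3 or more, those in the shortest and longest E domains and nearest an edge, and the paralogues with parents. The results of some single genes are not reported here, though they count in all totals. The members and lists were chosen with earlier results of these data known. Alternatives are in the closing section. Functions were checked on simulated data. The tools were matplotlib 3.10.9, scipy 1.17.1, pandas 2.3.3 and numpy 2.4.6 under Python 3.11.15.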

Additional observations from a re-analysis of the deposited data

How the results depend on the processing

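Some alternatives could not change the E shares of the members. All 75 genes lay within a single domain over their whole length in each map. Reading the gene end or the most frequent state over the gene therefore gave the same counts. No member lay in a domain under 100 kb, so leaving out such members removed none. The other alternatives left out members near a boundary of that map, left out the paralogues, counted domains once or added the ribosomal protein genes outside the rule. With each of these the E shares of the members stayed inside their intervals. Leaving out members within 100 kb of a boundary in any of the 3 maps raised the share E in all 3 maps to 87.0% (47 of 54). The same filter was not applied to all genes, so this share has no background to be set against. The share over all genes moved more. Without olfactory, vomeronasal and Gm-named genes it was 58.1%, 65.9% and 68.2% in CH12, primary B cells and the map named for MEFs, and with 1 count per 20 kb bin 48.9%, 56.4% and 58.7%. With GC content read in 200 kb, 94.3%, 94.1% and 96.6% of all genes in the highest quintile were E in the same maps, and 90.5% were E in every map. In that quintile lay 28 members in place of 22, all E in every map. Choices made after seeing the data were the RefSeq starts, which gave the tract in 24.1% of the members in place of 4.0%, the receptor families left out of the quintiles, and processed pseudogenes as background, with E shares of 36.6%, 42.6% and 44.4%. Depth and replicate spread cannot be read from the maps. No paired analysis was possible because the replicates had been merged into 1 map for each cell type. The median E domain length was 2360, 2180 and 2810 kb with each domain counted once.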

Other observations

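Ribosomal protein pseudogenes, copies of these genes that were mostly pasted into the genome through RNA, were placed in the same way. They were taken by name, as a symbol of the rule followed by -ps and an optional number. Copies under any other name were not counted and stay in the pseudogene backgrounds. Of 79 such pseudogenes on autosomes, 46 were E in CH12 (58.2%, 47.2 to 68.5%), 45 in primary B cells (57.0%, 46.0 to 67.3%) and 45 in the map named for MEFs (57.0%, 46.0 to 67.3%). The E shares of all 4055 annotated pseudogenes were 30.9%, 36.8% and 37.2%, and those of the 2685 processed ones 36.6%, 42.6% and 44.4%. In L lay 18, 12 and 12 of the 79 (22.8%, 15.2% and 15.2%), against 3, 1 and 1 of the 75 genes. The L shares were 41.8%, 28.0% and 25.9% of all annotated pseudogenes and 37.3%, 25.4% and 21.1% of the processed ones. E in all 3 maps was found for 34 of 79 (43.0%, 32.7 to 54.0%), against 25.5% of all annotated pseudogenes and 68.0% of the genes themselves. With all 134 copies named in this way, whatever their annotated type, the E shares were 52.2%, 53.0% and 55.2%.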
